A study of Mus musculus with 10 samples.

Results

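Cytosolic ribosomal protein genes encode the proteins of the 2 subunits of the ribosome that translates nuclear messages, and they were followed here across 10 hippocampus RNA libraries of hMAPT mice. Members were taken by symbol, as rows named Rpl or Rps with a number, Rplp0 to Rplp2, or Rpsa, without the S6 kinases and without rows marked as pseudogenes. The rule found 89 of the 21956 gene rows, among them 77 core proteins of the ribosome (46 of the large and 31 of the small subunit), 8 paralogs, 3 retrogenes and Rps19bp1, which encodes a binding partner of a ribosomal protein and not a ribosomal protein. All mice had the hMAPT genotype, that is, human tau, the microtubule-associated protein of neurons, was encoded in their genome, and were 6 months old. In 5 libraries, called circTau6 here, the mice had received AAV, an adeno-associated viral vector, carrying circTau6, by the series title a circular RNA from the tau gene, 80 days earlier. The other 5 libraries carry the label control, and the protocol calls these mice control-injected without naming what was injected. The labels give no promoter for the AAV, and they do not say whether each numbered library came from 1 mouse, so p-values measure the spread between these libraries. The comparison asks whether the messages of the translation machinery differ when circTau6 is delivered.

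As background, each ribosome carries about the same set of proteins, most of them in equal numbers, and cells keep the messages of these proteins in step. The messages begin with a run of pyrimidines, the 5′ terminal oligopyrimidine (TOP) motif, through which the kinase complex mTORC1 and the RNA-binding protein LARP1 control how well they are translated. Neurons make ribosomal proteins in the cell body and also transport some of these messages into dendrites and axons. Pathological tau has been reported to associate with ribosomes and to lower protein synthesis in models of tau disease.

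Start windows of 6 members are printed, in genes whose values are described further on. They show longer pyrimidine runs near the annotated start and, for Rpl22, only short ones. The 6 are examples picked without a stated rule and do not stand for all members. Among other genes described further on, the longest run was 7 in Rps15, 5 in Rps3a1 and Rpsa, and 4 in Rps4x. RefSeq's promoter table (GRCm38.p6) matched 67 of the 89 members and 57 of the 77 core genes. Each window runs from 25 bases before the RefSeq start to 20 bases from it on, 5′ to 3′ on the gene's strand, with the longest run of pyrimidines in capitals.
Rpl31 (chr1:39367826-39367870, + strand): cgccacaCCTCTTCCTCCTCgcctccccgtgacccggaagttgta
Rps12 (chr10:23787190-23787234, − strand): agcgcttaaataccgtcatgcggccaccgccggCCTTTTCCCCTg
Rps18 (chr17:33955646-33955690, − strand): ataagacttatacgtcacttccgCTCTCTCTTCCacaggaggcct
Rps27 (chr3:90213629-90213673, − strand): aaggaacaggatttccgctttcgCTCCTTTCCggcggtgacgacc
Rps24 (chr14:24490653-24490697, + strand): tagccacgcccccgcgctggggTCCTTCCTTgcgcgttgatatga
Rpl22 (chr4:152325701-152325745, + strand): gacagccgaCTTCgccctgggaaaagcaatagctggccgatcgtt
Rpl31, Rps12, Rps18, Rps27 and Rps24 each have a run of at least 9 pyrimidines, which lies across or close to the annotated start in Rps18, Rps27 and Rps24. In Rpl31 the run begins 18 bases before the start base and ends before it. In Rps12 the run begins 8 bases after the start base. In the window printed for Rpl22 the longest run is 4, and at a second RefSeq start of the gene it is 5. GENCODE M21 begins Rpl22 at base 152325742, near the end of the printed window, so most bases after that start lie outside it. It begins the genes Rps12, Rps18 and Rps24 outside their printed windows. Rps24 also has a second RefSeq start, with a run of 7, which is not printed. Within 25 bases on either side of the start, a run of at least 8 pyrimidines was present in 30 of the 57 core genes (52.6%), against 22.3% of the 27025 genes of the table. A run of at least 10 was present in 40.4% of the core genes and in 10.7% of all genes. In the 300 bases from 250 before to 50 after the start, CCGGAAG, the core bound by ETS factors, occurred on either strand in 42.1% of the core genes and 9.93% of all genes. GGGCGG, the GC box, occurred in 61.4% and 38.2%, and TATAAA, the TATA box, in 10.5% and 15.7%. Among the 17492 protein-coding genes of the table, CCGGAAG occurred in 12.9%, GGGCGG in 49.2% and TATAAA in 14.8%. Runs of at least 8 and at least 10 pyrimidines were present in 22.0% and 10.6% of these protein-coding genes. In the printed window of Rpl31, CCGGAAG begins 8 bases after the start base. These matches are descriptions of sequence and are not binding sites shown by these data.

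Total counts per library were 14762952 to 17647138, and 83 of the 89 members passed the filter on low counts, among 14396 genes tested. All 77 core genes passed. The 6 members left out are retrogenes or paralogs: Rpl10l had a count of 0 in all 10 libraries, Rpl27rt had 1 count in control 5 and 0 elsewhere, and Rpl39l, Rpl3l and Rps27rt had at most 16 counts in any library. Rps23rg1, a retrogene reported to lower tau phosphorylation, had at most 4 counts. A count of 0 allows up to 0.203 CPM (counts scaled to the library's total) in the shallowest library, counting error only. Markers chosen for hippocampal neurons, such as Prox1 and Wfs1, were all detected, the lowest at a mean of 33.2 TPM (an abundance scaled to transcript length and to the library's total). In control 2 and circTau6 5 the choroid plexus message Ttr had 650 and 411 counts, against 28538 to 86422 in the other 8. In bulk tissue, fewer cells of a type and less RNA per cell cannot be told apart.

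Ribosomal protein messages were among the abundant messages of the hippocampus, and the members together held 2.64% ± 0.0596 of all TPM in control libraries (SD, n = 5). By library this share was 2.71, 2.67, 2.68, 2.57 and 2.58% in controls 1 to 5. In circTau6 1 to 5 it was 2.69, 2.83, 2.98, 2.81 and 2.75%, with a mean of 2.81% ± 0.108 (SD, n = 5). The groups overlapped, since circTau6 1 lay below control 1, and the difference of the means was 0.171 percentage points. Members with Rpl symbols held 1.51 ± 0.0139 times the summed TPM of those with Rps symbols in control libraries (SD, n = 5). In circTau6 libraries they held 1.51 ± 0.0269 times (SD, n = 5). These sums include the paralogs, the retrogenes and Rps19bp1. This ratio of messages was the same within the spread, and the balance of the subunits themselves was not measured.

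**Figure D1:**
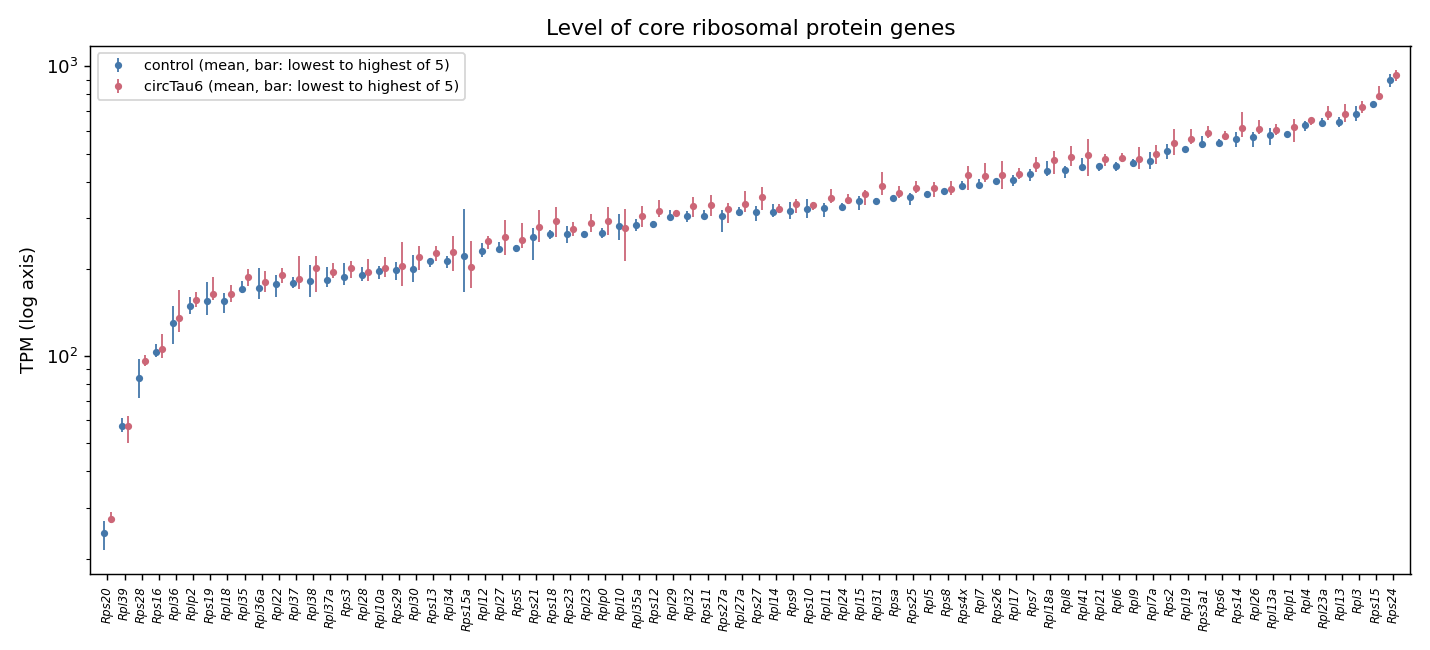
Mean TPM of the core genes on a log axis (1 core gene is not plotted), in control and circTau6 libraries, with bars from the lowest to the highest of 5 libraries. Rps20 stands lowest at 24.5 TPM in control and Rps24 highest at 893 TPM, and the medians over the 77 genes are 314 TPM in control and 332 TPM in circTau6 libraries.

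Although most of the proteins are needed in equal numbers, the messages of the core genes covered a 36.4-fold range of TPM in control libraries. Rps20, whose level is uncertain as described below, sets the lower end of that range. The core large subunit genes alone covered an 11.9-fold range. The median of the core genes was 314 TPM in control and 332 TPM in circTau6 libraries. Rps24, a small subunit protein linked to Diamond-Blackfan anaemia, was highest in control libraries at 893 ± 37.3 TPM (SD, n = 5, as for the other control levels here), followed by Rps15, a protein of the small subunit head, at 739.6 ± 14.1 TPM. Among large subunit genes, Rpl3, at the peptidyl transferase centre, was highest at 684 ± 34.5 TPM, with Rpl13 at 641 ± 19.99 TPM and Rpl23a, at the tunnel exit, at 637 ± 14.4 TPM. Rpl13 and Rpl23a did not differ beyond their spread. At the low end, Rpl39, which lines the peptide exit tunnel, stood at 57.3 ± 2.53 TPM, and Rps20 at 24.5 ± 2.36 TPM. The level of Rps20 rests on the length used for it: its counts per TPM were 5.16 times the members' median, and its coding transcript in GENCODE M21 is 3706 bases long, against a median of 648 bases for tested members. By counts, Rps20 had a mean of 635 per library, above Rpl39 with 232.

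The spread between control libraries was small for most members, with a median SD of 0.06 on the log2 CPM scale (CPM after TMM scaling, used here to compare 1 gene between libraries). Rpl19 and Rpl31, both at the rim of the tunnel exit, and Rpsa, the laminin receptor protein of the small subunit, were the steadiest, with SDs of 0.0160, 0.0207 and 0.0238. Rps27l, Rpl36 and Rps4l varied most among members with at least 50 counts, with SDs of 0.310, 0.180 and 0.166. In circTau6 libraries the median SD was 0.09.

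No cytosolic ribosomal protein gene passed the edgeR test between circTau6 and control libraries at an adjusted p of 0.05, and 0% of all genes tested were called in either direction. The lowest adjusted p among members was 0.981 with Benjamini-Hochberg adjustment over all genes. The values were nevertheless small and mostly of 1 sign: 78 of the 83 tested members (94.0%) had a log2 fold change above 0, against 49.9% of all genes tested. The median log2 fold change was 0.07, or 4.95% higher, with quartiles of 0.04 and 0.10, while the median of all genes was 0.00. The median standard error of a single member, 0.05, was close to that size. At an unadjusted p under 0.05, 14 members had higher values (16.9%, against 2.58% of all genes) and 0 had lower values (against 1.85%). DESeq2 called 0 members at an adjusted p of 0.05 (0.0973% of all genes were called higher). At an unadjusted p under 0.05 DESeq2 gave 16 members higher values (against 2.35% of all genes). Limma voom called 0 members, with 14 higher at its unadjusted p (against 2.92%). The members were read from the same libraries, so the sign that most of them share does not rest on 83 separate observations.

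**Figure D2:**
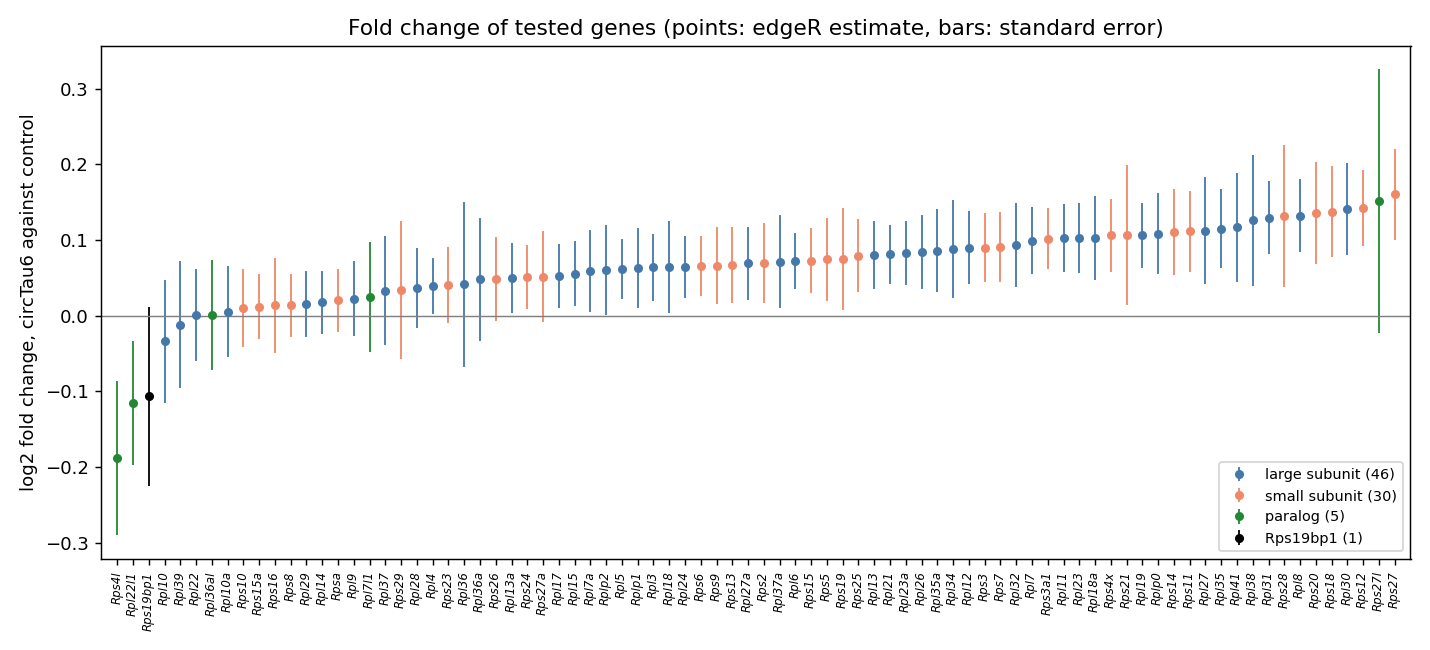
Log2 fold change, circTau6 against control, of the tested members (1 is not plotted; edgeR estimate with its standard error), in order of size and coloured by subunit or role. The core small subunit genes plotted lie above 0, and Rps4l, Rpl22l1 and Rps19bp1 lie lowest.

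The medians were alike in both subunits, and a difference between the subunits was not tested. Of the 46 core large subunit genes, 44 had a log2 fold change above 0, with a median of 0.07, and of the 31 core small subunit genes 31, with a median of 0.07. The 2 core genes below 0 were Rpl10, with -0.03 ± 0.08 (SE), and Rpl39, with -0.01 ± 0.08 (SE). The range over core genes ran from -0.03 to 0.16. In 6 members every circTau6 library lay above every control library (7.23%, against 0.472% of all genes), namely Rpl11, Rpl19, Rpl31, Rpl6, Rps12 and Rps15. In 0 members did every circTau6 library lie below every control (against 0.368% of all genes).

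Among small subunit genes the lowest unadjusted p belonged to Rps12, a protein of the subunit's beak (chr10:23785183-23787275, GRCm38). Rps12 stood at 68.3, 68.2, 67.9, 65.7 and 64.9 CPM in controls 1 to 5 and at 70.5, 71.4, 80.3, 76.95 and 70.7 CPM in circTau6 1 to 5. All circTau6 libraries were above all controls, with circTau6 3 and 4 highest, and the log2 fold change was 0.14 ± 0.05 (SE, edgeR unadjusted p = 0.0124). Rps27, a zinc finger protein of the small subunit (chr3:90212522-90213651), had the largest log2 fold change of all tested members, 0.16 ± 0.06 (SE, edgeR unadjusted p = 0.0168). Its values were 45.99, 44.4, 41.6, 43.7 and 44.3 CPM in controls and 46.6, 53.5, 52.2, 49.3 and 43.9 CPM in circTau6 libraries, and circTau6 5 lay among the controls. Rps3a1, at the exit of the message channel, stood at 226, 214, 212, 209 and 209 CPM in controls and at 222, 227, 244, 227 and 228 CPM in circTau6 libraries, where control 1 was above circTau6 1. Rps18, in the head of the subunit, stood at 60.7, 61.5, 60.5, 58.6 and 57.5 CPM in controls and at 57.9, 68.3, 73.5, 65.2 and 63.7 CPM in circTau6 libraries, with a log2 fold change of 0.14 ± 0.06 (SE, edgeR unadjusted p = 0.0357). CircTau6 1 lay among the controls and the other 4 above them. Rps4x, the X-linked S4 protein, stood at 152, 158, 154, 152 and 148 CPM in controls and at 161, 148, 177, 171 and 166 CPM in circTau6 libraries, with a log2 fold change of 0.11 ± 0.05 (SE, edgeR unadjusted p = 0.0450). CircTau6 2 was just below the lowest control, and the other 4 were above all controls.

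Rps24, Rps15 and Rps14 had the highest TPM of the small subunit genes. Rps24 stood at 196, 192, 188, 180.2 and 183 CPM in controls and at 185, 200.2, 203, 189 and 195 CPM in circTau6 libraries, with overlap (log2 fold change 0.05 ± 0.04 SE). Rps15 stood at 152, 152, 152, 151 and 145 CPM in controls and at 154, 157, 172, 154 and 153 CPM in circTau6 libraries. Its groups did not overlap, with control 3 just under circTau6 5, and the log2 fold change was 0.07 ± 0.04 (SE). Rps14, on the platform of the small subunit, stood at 139.5, 138, 145, 129 and 129 CPM in controls and at 137, 139, 167, 148 and 144 CPM in circTau6 libraries, with overlap and circTau6 3 highest (log2 fold change 0.11 ± 0.06 SE). Rps20, the lowest core small subunit gene by TPM, stood at 40.2, 34.2, 40.5, 37.6 and 32.04 CPM in controls and at 39.8, 39.9, 43.2, 39.7 and 40.5 CPM in circTau6 libraries. Only circTau6 3 was above all controls of Rps20, while controls 2, 4 and 5 were below all circTau6 libraries (log2 fold change 0.14 ± 0.07 SE).

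Among large subunit genes the 6 with the lowest unadjusted p were Rpl8, Rpl31, Rpl19, Rpl30, Rpl11 and Rpl23. Rpl8, near the peptidyl transferase centre (chr15:76904078-76906314), stood at 151, 155, 157, 143 and 151 CPM in controls 1 to 5 and at 159, 156, 182, 171 and 164 CPM in circTau6 1 to 5, with a log2 fold change of 0.13 ± 0.05 (SE, edgeR unadjusted p = 0.0152). Control 3 lay above circTau6 2, so the groups overlapped slightly. Rpl31 (chr1:39367842-39371911) stood at 91.8, 90.3, 89.96, 90.9 and 88.3 CPM in controls and at 98.2, 109, 98.5, 95.3 and 92.5 CPM in circTau6 libraries, with circTau6 2 highest and no overlap (log2 fold change 0.13 ± 0.05 SE, edgeR unadjusted p = 0.0168). Rpl19 (chr11:98026710-98030492) stood at 159.7, 157, 156, 155 and 158 CPM in controls and at 172, 169, 183, 161 and 162 CPM in circTau6 libraries. Its groups did not overlap, though circTau6 4 was only just above control 1, and the log2 fold change was 0.11 ± 0.04 (SE, edgeR unadjusted p = 0.0256). Rpl30 and Rpl23 both lie on the face turned to the small subunit. Rpl30 stood at 64.1, 59.1, 56.3, 61.5 and 52.5 CPM in controls and at 62.2, 68.4, 68.9, 63.9 and 60.2 CPM in circTau6 libraries (log2 fold change 0.14 ± 0.06 SE), and Rpl23 at 114, 111, 115, 117 and 111 CPM and at 119, 122, 132, 124 and 113 CPM (log2 fold change 0.10 ± 0.05 SE). In Rpl30 control 1 was above circTau6 1, 4 and 5, and in Rpl23 circTau6 5 lay among the controls. Rpl3, Rpl13 and Rpl23a, the large subunit genes with the highest TPM, had log2 fold changes of 0.06 ± 0.04, 0.08 ± 0.04 and 0.08 ± 0.04 (SE). Rpl7 and Rpl35, the remaining large subunit genes at an unadjusted edgeR p under 0.05, had 0.10 ± 0.04 and 0.12 ± 0.05 (SE).

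**Figure D3:**
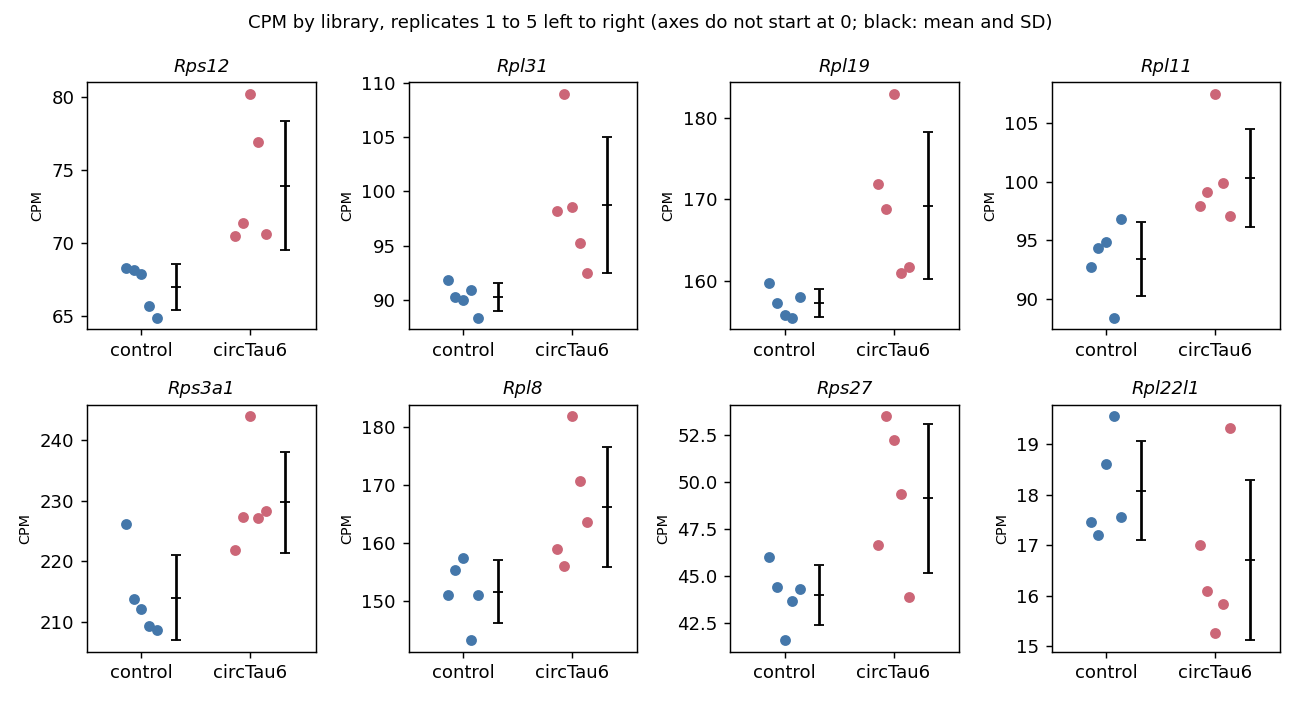
CPM of 8 genes in each library, replicates 1 to 5 from left to right within each group, with the mean and SD of 5 in black; the axes do not start at 0. The groups do not overlap for Rps12, Rpl31, Rpl19 and Rpl11, they overlap for Rps3a1, Rpl8 and Rps27, and Rpl22l1 has lower values in 4 of the 5 circTau6 libraries than in any control.

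Grouped by place on the ribosome, the rim of the tunnel exit, where new chains emerge and targeting factors dock, had 6 of 6 genes (Rpl19, Rpl22, Rpl23a, Rpl26, Rpl31, Rpl35) above 0, with a median log2 fold change of 0.10 and 3 at an unadjusted edgeR p under 0.05 with higher values (against 2.58% of all genes). Among all tested members 94.0% were above 0 and 16.9% had an unadjusted edgeR p under 0.05, so 6 of 6 above 0 is near the members' own share. Differences between the groups were not tested. Within it Rpl22 was at 0.00 ± 0.06 (SE), so the group was not uniform. The genes lining the tunnel, Rpl4, Rpl17 and Rpl39, had a median of 0.04 and 0 at that p. The stalk, which recruits the GTP-hydrolysing translation factors, had 4 of 4 genes above 0 and 0 at that p, with a median of 0.08. Its base Rplp0 stood at 149, 145, 151, 142 and 143 CPM in controls and at 149, 144, 178, 160.2 and 157 CPM in circTau6 libraries. CircTau6 3 was highest, and circTau6 1 and circTau6 2 were inside the control range. Rplp1, Rplp2 and Rpl12 had 0.06 ± 0.05, 0.06 ± 0.06 and 0.09 ± 0.05 (SE).

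Rpl5 and Rpl11 form a particle with 5S ribosomal RNA that, when it is free, binds Mdm2 and stabilises p53. Rpl11 (chr4:136028265-136053428) stood at 92.8, 94.4, 94.9, 88.4 and 96.8 CPM in controls and at 97.9, 99.1, 108, 99.9 and 97.1 CPM in circTau6 libraries. The groups touched closely, control 5 at 96.8 below circTau6 5 at 97.1, and the log2 fold change was 0.10 ± 0.05 (SE, edgeR unadjusted p = 0.0382). Rpl5 stood at 197, 201, 199, 194 and 192 CPM in controls and at 196, 211, 205, 215 and 199 CPM in circTau6 libraries, with overlap and a log2 fold change of 0.06 ± 0.04 (SE). Rpsa stood at 257, 259, 263, 252 and 257 CPM in controls and at 252, 254, 286, 255 and 259.8 CPM in circTau6 libraries. Apart from circTau6 3 the groups of Rpsa covered the same range, and the log2 fold change was 0.02 ± 0.04 (SE). In a chosen list of 14 members linked to human ribosome disorders or to mTORC1 signalling, 13 were above 0, with a median of 0.06. This list, which need not hold every such member, includes Rps19, Rps26, Rpl35a and the S6 kinase target Rps6. Among all tested members 94.0% were above 0, with a median of 0.07.

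Library by library, the members deviated together. The median deviation of the 83 members from their own mean over 10 libraries, in log2 CPM, was -0.01, -0.02, -0.0016, -0.05 and -0.08 in controls 1 to 5 and -0.02, 0.04, 0.12, 0.02 and 0.00 in circTau6 1 to 5. CircTau6 1 thus lay within the controls, and circTau6 3 stood far above the rest. In circTau6 3, 79 of the 83 members were above their own mean and 41 had their highest value of all libraries. In control 5, 11 of the 83 were above their mean and 32 had their lowest value. Without circTau6 3, 69 of the 83 members had a log2 fold change above 0 (48.3% of all genes did), the median was 0.05 and 6 members had an unadjusted edgeR p under 0.05 with higher values (1.88% of all genes).

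CircTau6 3 also differed from the other libraries in measures that are not specific to ribosomes. Across 14371 genes, the deviation of a gene in circTau6 3 went with the GC content of its transcript with r = 0.241, against -0.0685 to -0.00699 in the other 9 libraries, where genes are not independent replicates. The tested members had a median GC content of 52.5% and a median length of 648 bases, against 51.3% and 1978 bases for all genes. Other genes with a GC content of 50% or more had a median deviation of 0.07 in circTau6 3, and other genes with transcripts under 1000 bases 0.05. After each library was corrected for GC content and length, the members' median deviation there was 0.07, and 71 of the 83 members had a log2 fold change above 0 (50.5% of all genes), with a median of 0.06 and 12 at an unadjusted edgeR p under 0.05 with higher values (2.61% of all genes). Hippocampal neuron markers had their lowest median deviation in circTau6 3, -0.23, and meningeal fibroblast markers their highest, 0.90.

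**Figure D4:**
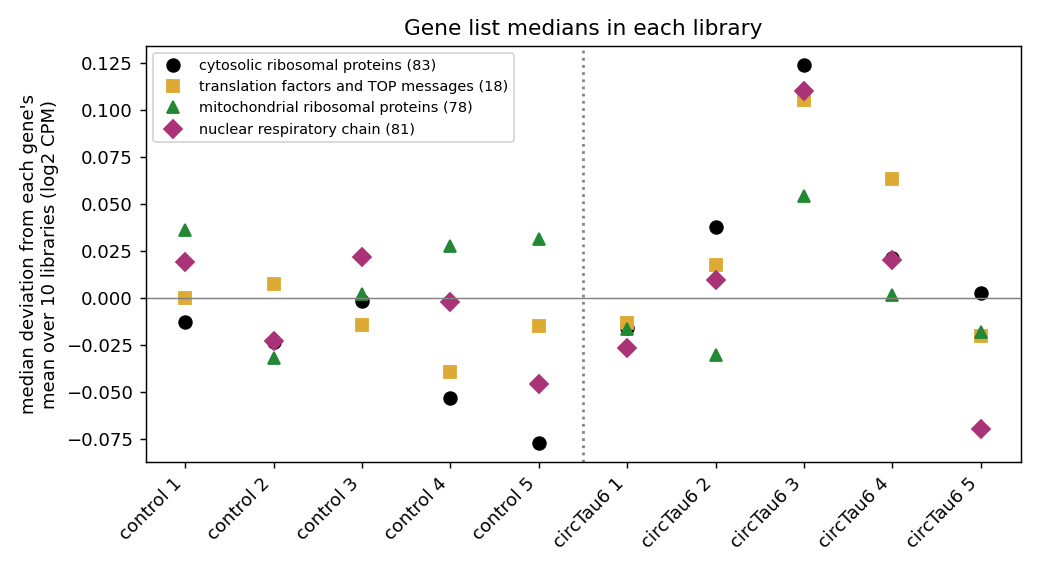
Median deviation, in log2 CPM from each gene's mean over 10 libraries, of 4 gene lists in each library. Ribosomal proteins (circles) reach 0.12 in circTau6 3 and -0.08 in control 5, respiratory chain genes reach 0.11 in circTau6 3, and circTau6 1 lies in the range of the controls.

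Markers of other cell types were summed per library. Microglia markers (Cx3cr1, P2ry12, Tmem119, Csf1r) had 183 to 203 CPM in controls and 198 to 217 CPM in circTau6 libraries, which overlapped. Singly, 3 of the 4 had an unadjusted edgeR p under 0.05 with higher values (against 2.58% of all genes), in 2 of the 4 every circTau6 library lay above every control (against 0.472%), and their median log2 fold change was 0.17, beside 0.07 for the ribosomal protein genes. Meningeal fibroblast markers spanned 75.5 to 113 CPM in controls and 57.2 to 153 CPM in circTau6 libraries, with 5 of 5 above 0 and 0 at that p. Endothelial markers spanned 176 to 208 and 180.1 to 224 CPM, neuron markers 6784 to 7375 and 6035 to 7187 CPM, and astrocyte markers 4278 to 4789 and 4086 to 4863 CPM. Oligodendrocyte markers spanned 4258 to 5234 and 4581 to 4948 CPM, hippocampal neuron markers 617 to 695 and 606 to 681 CPM, and choroid plexus markers 73.8 to 4568 and 64.4 to 5535 CPM. No marker was at 0. The part of GC content, transcript length and cell makeup in the ribosomal protein values was not tested beyond these measurements.

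Paralogs, some of which can take the place of a core protein in some tissues, were split in sign. Of the 5 that passed the filter, 3 were above 0 and 2 below, and 0 passed the test. Rpl22l1, the paralog of Rpl22 with its own roles in splicing (chr3:28805436-28807424), stood at 17.5, 17.2, 18.6, 19.6 and 17.6 CPM in controls and at 17.003, 16.1, 15.3, 15.8 and 19.3 CPM in circTau6 libraries. It was lower than every control in 4 circTau6 libraries and near the top of the controls in circTau6 5 (log2 fold change -0.11 ± 0.08 SE, edgeR unadjusted p = 0.181). Its partner Rpl22 had 0.00 ± 0.06 (SE), and Rpl22l1 made up 32.1% ± 2.10 of the summed TPM of the pair in control and 29.1% ± 2.58 in circTau6 libraries (SD, n = 5). Rps4l, an autosomal copy of X-linked Rps4x (chr6:148354656-148355598), stood at 14.4, 16.4, 16.5, 12.5 and 14.3 CPM in controls and at 12.2, 15.2, 13.4, 12.7 and 11.4 CPM in circTau6 libraries. Its groups overlapped and its log2 fold change was the lowest of the members, -0.19 ± 0.10 (SE, edgeR unadjusted p = 0.0854). It made up 6.60% of the pair's TPM in control and 5.49% in circTau6 libraries. Rpl7l1, Rpl36al and Rps27l had 0.02 ± 0.07, 0.00 ± 0.07 and 0.15 ± 0.17 (SE). Their shares of the pairs with Rpl7, Rpl36a and Rps27 were 8.75, 41.8 and 6.20% in control and 9.26, 40.8 and 6.17% in circTau6 libraries. The share of Rpl7l1 is uncertain and ran from 6.47 to 12.8% in controls. There its TPM ran from 28.2 to 56.9, while its counts ran only from 454 to 524. Rps19bp1, which is no part of the ribosome, had -0.11 ± 0.12 (SE).

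Processed copies bear on what the values of some core genes count. Rpl10-ps3, a pseudogene copy of Rpl10 outside the rule, had 292 ± 26.7 TPM in control and 322 ± 29.5 TPM in circTau6 libraries, against 281 ± 21.05 TPM in control and 276 ± 39.5 TPM in circTau6 libraries for Rpl10 itself (SD, n = 5). The copy held 50.9% ± 4.05 of the summed TPM in control and 53.9% ± 5.11 in circTau6 libraries (SD, n = 5), and 62.4% in circTau6 1. In circTau6 1 Rpl10 had its lowest value, 60.8 CPM, against 71.8 to 87.6 CPM in the other libraries, while the pair's sum there, 565 TPM, was within the control range of 557 to 589 TPM. Reads of near-identical copies may be split by the counting, so the values of Rpl10 alone are uncertain.

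**Figure D5:**
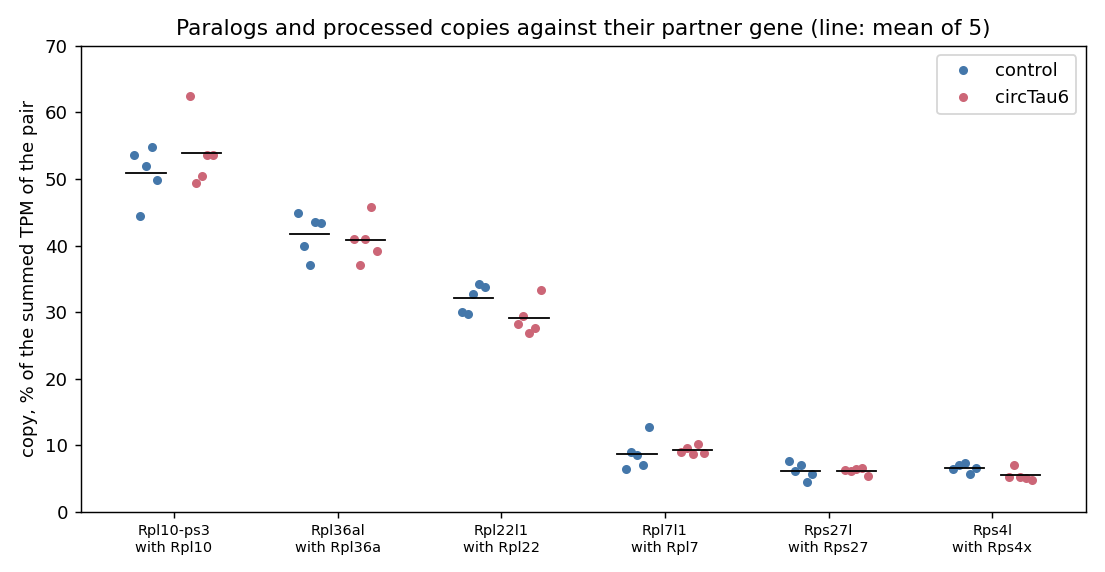
TPM of a paralog or processed copy as a percentage of the pair's summed TPM, for 6 pairs, 1 point per library and a line at the mean of 5. Control and circTau6 libraries overlap in each pair, and the highest Rpl10-ps3 share, 62.4%, is circTau6 1.

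Genes that work with the ribosome were counted from lists named for this purpose. The ribosomal proteins with other symbols, Fau and the scaffold Rack1, had log2 fold changes of 0.05 ± 0.06 and 0.08 ± 0.05 (SE). Of 18 translation factors and other TOP messages, 14 were above 0, with a median of 0.05. Higher values at an unadjusted edgeR p under 0.05 were found for 2 of the 18 (against 2.58% of all genes). They were Eif3f, an initiation factor subunit (0.11 ± 0.05 SE), and Eef1b2, the exchange factor of elongation factor 1 (0.12 ± 0.05 SE). Eef1a1, the elongation factor that carries aminoacyl-tRNA, stood at 3354 ± 75.04 TPM in control and 3629 ± 200 TPM in circTau6 libraries (SD, n = 5). In circTau6 3 these 18 messages had a median deviation of 0.11, close to the 0.12 of the ribosomal proteins.

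Of the genes that build ribosomes, 17 of 35 were above 0, with a median of -0.0046. At an unadjusted edgeR p under 0.05, 1 had higher values (against 2.58% of all genes), Polr1b of RNA polymerase I (0.21 ± 0.08 SE). Lower values at that p were found for 2 (against 1.85%), the initiation factor Rrn3 (-0.11 ± 0.05 SE) and the nuclease Nob1 (-0.18 ± 0.08 SE). Of 17 genes of the mTOR pathway, 9 were above 0, with a median of 0.02 and 0 at that p. Mitochondrial ribosomal proteins, which serve the organelle's own ribosome, had 36 of 78 above 0 and a median of -0.01. At that p 1 had higher values, Mrps34 (against 2.58% of all genes), and 4 had lower values (against 1.85%). In 4 of the 78 every circTau6 library lay below every control (against 0.368% of all genes). In 0 of them did every circTau6 library lie above every control (against 0.472%). Nuclear genes of the respiratory chain had 50 of 81 above 0 and a median of 0.01, with Cox8a at that p. Whether the lists differ from each other was not tested.

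In the authors' deposited table, 18 of the 89 members had a p-value under 0.05 with a higher level in circTau6 libraries (20.2%, against 2.90% of all 21956 rows). The authors' deposited table gave 79 members a log2 fold change above 0, with a median of 0.09. These fold changes follow mean TPM and not the TMM scale, and the share above 0 over all rows is not given here. With limma on log2(TPM + 1) the median of all genes was itself 0.02. An FDR under 0.05 was deposited for 0 members, the lowest being 0.987.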

How the data were processed

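Hippocampus RNA was measured in 10 libraries of hMAPT mice, grouped by the treatment label into 5 control and 5 circTau6 libraries. Per the labels' protocols, RNA with integrity numbers above 8.0 was depleted of ribosomal RNA, and the stranded libraries were sequenced as 150 bp paired reads. StringTie 1.3.1 and RSEM are the tools named in the submitters' processing notes. The sources used here do not give the aligner, the genome build or the annotation. The deposited table holds, per the file headers, a count and a TPM per gene and library, and both were used as deposited. The table also holds deposited log2 fold changes, deposited p-values and FDR of a comparison made by the authors, with an unstated test.

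Counts were compared with edgeR 4.0.16 in R 4.3.3 (filterByExpr, TMM scaling, robust quasi-likelihood F test) across all genes, with Benjamini-Hochberg adjustment over all genes and a threshold of 0.05. Standard errors equal the absolute log2 fold change over the square root of F. CPM carry the TMM scaling, with a prior count of 2 on the log scale. Alternatives were DESeq2 1.42.0, limma 3.58.1 (voom with quality weights, or a trend fit on log2(TPM + 1)), other scalings, no filter, a replicate block and leaving out libraries; a correction for transcript GC content and length was added after seeing the data. The edgeR script was tested on simulated data. GENCODE release M21 (GRCm38) gave coordinates, lengths and GC content by gene ID, for 89 of 89 members. Start windows are from RefSeq's table (GRCm38.p6).

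The members and gene lists were chosen with earlier results of these data known. Genes named are the 3 highest and 3 lowest tested members of each subunit by TPM, up to 6 of each subunit by lowest p, the stalk, 5S particle and Rpsa genes, the paralogs and their partners, and the 3 members with the highest and the 3 with the lowest spread in controls. They are given by library or by their mean or log2 fold change. Other members are summarised, and those named beyond this rule were chosen after their values were seen. Some genes are not reported here by name.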

Additional observations from a re-analysis of the deposited data

Results flagged for a closer look

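In 78 groups of 5 values of the named genes, 5 had a library far from the other 4 of its group, where chance gives about 5 in 100 groups. Of these, 4 were the highest value in circTau6 3, the library that also stood apart in GC content. Rpsa had 285.8 CPM there, against 251.8 to 259.8 CPM in the other circTau6 libraries. Rps15 had 172.3 CPM, against 153.0 to 156.6 CPM. Rpl11 had 107.5 CPM, against 97.06 to 99.91 CPM, and Rps20 43.17 CPM, against 39.68 to 40.47 CPM. The remaining one was the lowest control value of Rps15, 144.9 CPM in control 5, against 150.5 to 152.5 CPM in the other controls.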

How the results depend on the processing

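No ribosomal protein gene was called by edgeR, DESeq2 or limma under any alternative run, nor at an adjusted p of 0.10, and the median log2 fold change stayed above 0, at 0.05 to 0.09. The number of members with higher values at an unadjusted p under 0.05 was 14 with TMM scaling (against 2.58% of all genes). It was 28 with library totals only (against 3.65%) and 31 with limma on log2(TPM + 1) (against 3.75%). The median of all genes was 0.02 in both of these settings. Leaving out 1 library gave 6 to 19 such members. There were 6 without circTau6 replicate 3 (against 1.88% of all genes) and 7 without control replicate 5 (against 2.43%). Without control replicate 4 there were 8 (against 2.02%), and without circTau6 replicate 4 also 8 (against 1.91%). The 19 came without circTau6 replicate 1 (against 2.84%). The difference in the members' share was 0.171 points of TPM, 0.129 to 0.200 leaving out 1 library, and 0.0578 points as a share of counts. Of 36 named genes, 29 kept their sign in all 20 alternatives. Near 0, Rpl22 took -0.003067 with DESeq2, -0.001619 with RLE scaling, -0.002357 with no filter and -0.0003441 after GC and length correction. Rpl36al took -0.001788, -0.001239, -0.002127 and -0.0185 under the same settings, and -0.004214 with the replicate block. Rpl39 took 0.01098 with library totals only and 0.002869 with limma on log2(TPM + 1), and Rpsa -0.001444 after GC and length correction. Leaving out 1 library, log2 fold changes ran from -0.0869 to 0.0398 for Rpl10, -0.0459 to 0.0340 for Rpl22, -0.0554 to 0.0900 for Rpl36, -0.0451 to 0.0369 for Rpl36al, -0.0456 to 0.0352 for Rpl39, -0.0215 to 0.0641 for Rpl7l1 and -0.0152 to 0.0336 for Rpsa. The cause of these differences was not tested. Replicate numbers did not pair the libraries (correlations of same-numbered deviations -0.0764 to 0.136, with 0 of 5 highest for their own number). With the replicate block 0 members were called, and the median was 0.07. In that setting 12 members had higher values at an unadjusted p under 0.05 (against 2.45% of all genes). The median SE of a single member's log2 fold change was 0.05.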

Other observations

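Rps15a, a small subunit protein, gave unlike values in the deposited units, and it was chosen after its values were seen. Its TPM in controls 1 to 5 were 321, 167, 253, 186 and 183 and in circTau6 1 to 5 171, 178, 249, 230.1 and 186, a spread far wider than that of its counts, which ran from 1659 to 2059 per library. In CPM it stood at 107 to 119 in controls and 111 to 118 in circTau6 libraries. The log2 fold change was 0.01 from counts and -0.13 in the authors' deposited table. In GENCODE M21 its longest coding transcript has 5179 bases, against 637 bases for its representative transcript.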
